A study of Homo sapiens with 4 samples.

Results

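Receptor tyrosine kinases are membrane proteins, most of which bind a growth factor or another extracellular ligand, and they pass the signal on through a kinase in the cytoplasm. Each has an extracellular part (in most, the part that binds the ligand), a single transmembrane segment and an intracellular kinase, in that order along the mRNA. An mRNA that ends in an intron upstream of the transmembrane exon would lack the codons for the segment and the kinase, and one that ends between the segment and the kinase would keep a membrane anchor without a whole kinase. An mRNA that holds all coding exons and ends after the stop codon keeps the whole receptor. A choice among ends there changes only the length of the 3′ UTR. The place of an end does not show which exons its mRNA holds upstream.

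The peaks of 8 such receptor genes were taken from maps of HNRNPC and PABPC4 on RNA in MDA-MB-231, an established human triple-negative breast cancer cell line. The genes were EGFR and ERBB2 of the epidermal growth factor receptor family, MET (receptor of hepatocyte growth factor), AXL (receptor of GAS6), EPHA2 (receptor of ephrin-A ligands), IGF1R and INSR (receptors of insulin-like growth factors and insulin) and DDR1 (a collagen receptor). Members were the positions that the peak lists assigned to the NCBI Gene ID of a receptor, each position counted once. They came to 43 of 9107 HNRNPC positions and 115 of 63507 PABPC4 positions, and 7 of the 8 genes had peaks in both lists.

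HNRNPC is a mostly nuclear protein that binds U-rich RNA, and PABPC4 is a poly(A)-binding protein. Both immunoprecipitations used unmodified MDA-MB-231 cells irradiated with 400 mJ per square centimetre at 254 nm. HNRNPC had 2 samples, made by irCLIP according to the labels, a method that fixes proteins to RNA by ultraviolet light and reads the RNA that comes down with an antibody, while the deposited list is named for HITS-CLIP, a related method. PABPC4 had 2 samples, made by PAPERCLIP, in which reverse transcription starts at poly(A), so that a peak marks a place where the tag was followed by A. Each list pools both samples of its protein, so no value has a spread between replicates and no test was made. The study's methods call the samples of a protein biological duplicates, and the labels do not describe the cultures further. The height of a peak is the number of unique tags at its summit. Heights were compared only within a list, since the library depths were not analysed here, and they depend on how much of an mRNA the cells hold as well as on binding.

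The ends themselves are shown first. Each line gives the last 30 bases of a PABPC4 peak in a last exon, 5′ to 3′ on the strand of the gene (hg38), with a poly(A) signal (AATAAA or ATTAAA) in capitals. These 6 peaks were chosen because they carry a signal and lie at an annotated 3′ end of the gene, meaning that the annotated end is inside the peak or at most 25 nt downstream.
MET, 383 tags, chr7:116798355-116798384, + strand: gcaATTAAAgtaaagtgatgcaacatcttg
AXL, 83 tags, chr19:41260266-41260295, + strand: attctATTAAAgtgctaaggttctaaggcc
ERBB2, 70 tags, chr17:39728544-39728573, + strand: tttttaaagatgaAATAAAgacccaggggg
EPHA2, 394 tags, chr1:16124339-16124368, - strand: tctggAATAAAgttgcagatgattcaaacc
IGF1R, 22 tags, chr15:98964499-98964528, + strand: ggtttaagttaAATAAAataattctgtatg
INSR, 38 tags, chr19:7112266-7112295, - strand: acctgtttatATTAAAattctgATTAAAtt

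Other PABPC4 peaks sat beside A-rich genomic sequence. The next 5 lines show the tallest intron peaks of EGFR, AXL, MET, IGF1R and INSR, as 10 bases of the peak and 20 bases downstream, and the last line shows the last 30 bases of the tallest EGFR peak of all, which lies in the last exon. Capitals mark runs of 6 or more A. Such a run was present in the lines of EGFR and AXL, while the longest run of A was 3 bases in MET and 5 in IGF1R and INSR. All 5 intron peaks met the rule for an A-rich stretch used below, which searches 50 nt downstream and also takes 7 A among 10 bases.
EGFR intron 1, 225 tags, chr7:55099815-55099844, + strand: gatgtgcaattAAAAAAAAAAAAAgaaagg
AXL intron 12, 182 tags, chr19:41246435-41246464, + strand: agactgtctcAAAAAAAAAAAAAAttaaat
MET intron 2, 179 tags, chr7:116716459-116716488, + strand: gaaagaaagagaaagaaagaaagaaagaaa
IGF1R intron 2, 83 tags, chr15:98780511-98780540, + strand: tgcactccagcttgggcaaaaagaatgaaa
INSR intron 2, 69 tags, chr19:7255553-7255582, - strand: caaaaacagaaggaaggaaggaaggaaaga
EGFR last exon, 600 tags, chr7:55205886-55205915, + strand: agaggtatatttgAAAAAAAAAAAAAgtat

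Another 3 sequences carry results described further on. The first is the last 30 bases of the tallest AXL peak, with a variant of the signal in capitals. The second is the only PABPC4 peak in the receptors at an annotated end upstream of the transmembrane exons, with its signal in capitals. The third is the stretch just before an HNRNPC peak in the last exon of AXL, with its U run (written T) in capitals.
AXL last exon, 1041 tags, chr19:41261736-41261765, + strand: tcaggtcaCATAAAactttgtatatcaacg
ERBB2 internal end, 13 tags, chr17:39717616-39717645, + strand: attgtaaaATTAAAacatgaaatataaatt
AXL before the 22-tag HNRNPC peak, chr19:41260284-41260313, + strand: ggttctaaggcctacTTTTTTTTTTTTTTT

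PABPC4 peaks were most numerous in EGFR, which had 37, followed by INSR with 21, AXL with 20, IGF1R with 18, MET with 14, EPHA2 with 3 and ERBB2 with 2. HNRNPC peaks were also most numerous in EGFR, which had 22, and AXL had 7, EPHA2 had 5, IGF1R had 4, INSR had 3, and MET and ERBB2 had 1 each. Over all 18891 protein-coding genes with more than 1 exon, 19.3% had an HNRNPC peak, 59.4% had a PABPC4 peak and 47.8% had a PABPC4 peak in the last exon. For the receptors these counts were 7, 7 and 7 of 8. The genes differ in length, so the counts were also set per 10 kb of gene. AXL was then the densest for both proteins, with 4.70 PABPC4 and 1.65 HNRNPC peaks per 10 kb. EPHA2 followed for HNRNPC with 1.58 and EGFR with 1.14, while the other 4 genes with peaks lay between 0.0793 (MET) and 0.235 (ERBB2). For PABPC4, EGFR had 1.92 peaks per 10 kb and IGF1R and ERBB2 were lowest, with 0.570 and 0.470.

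**Figure D1:**
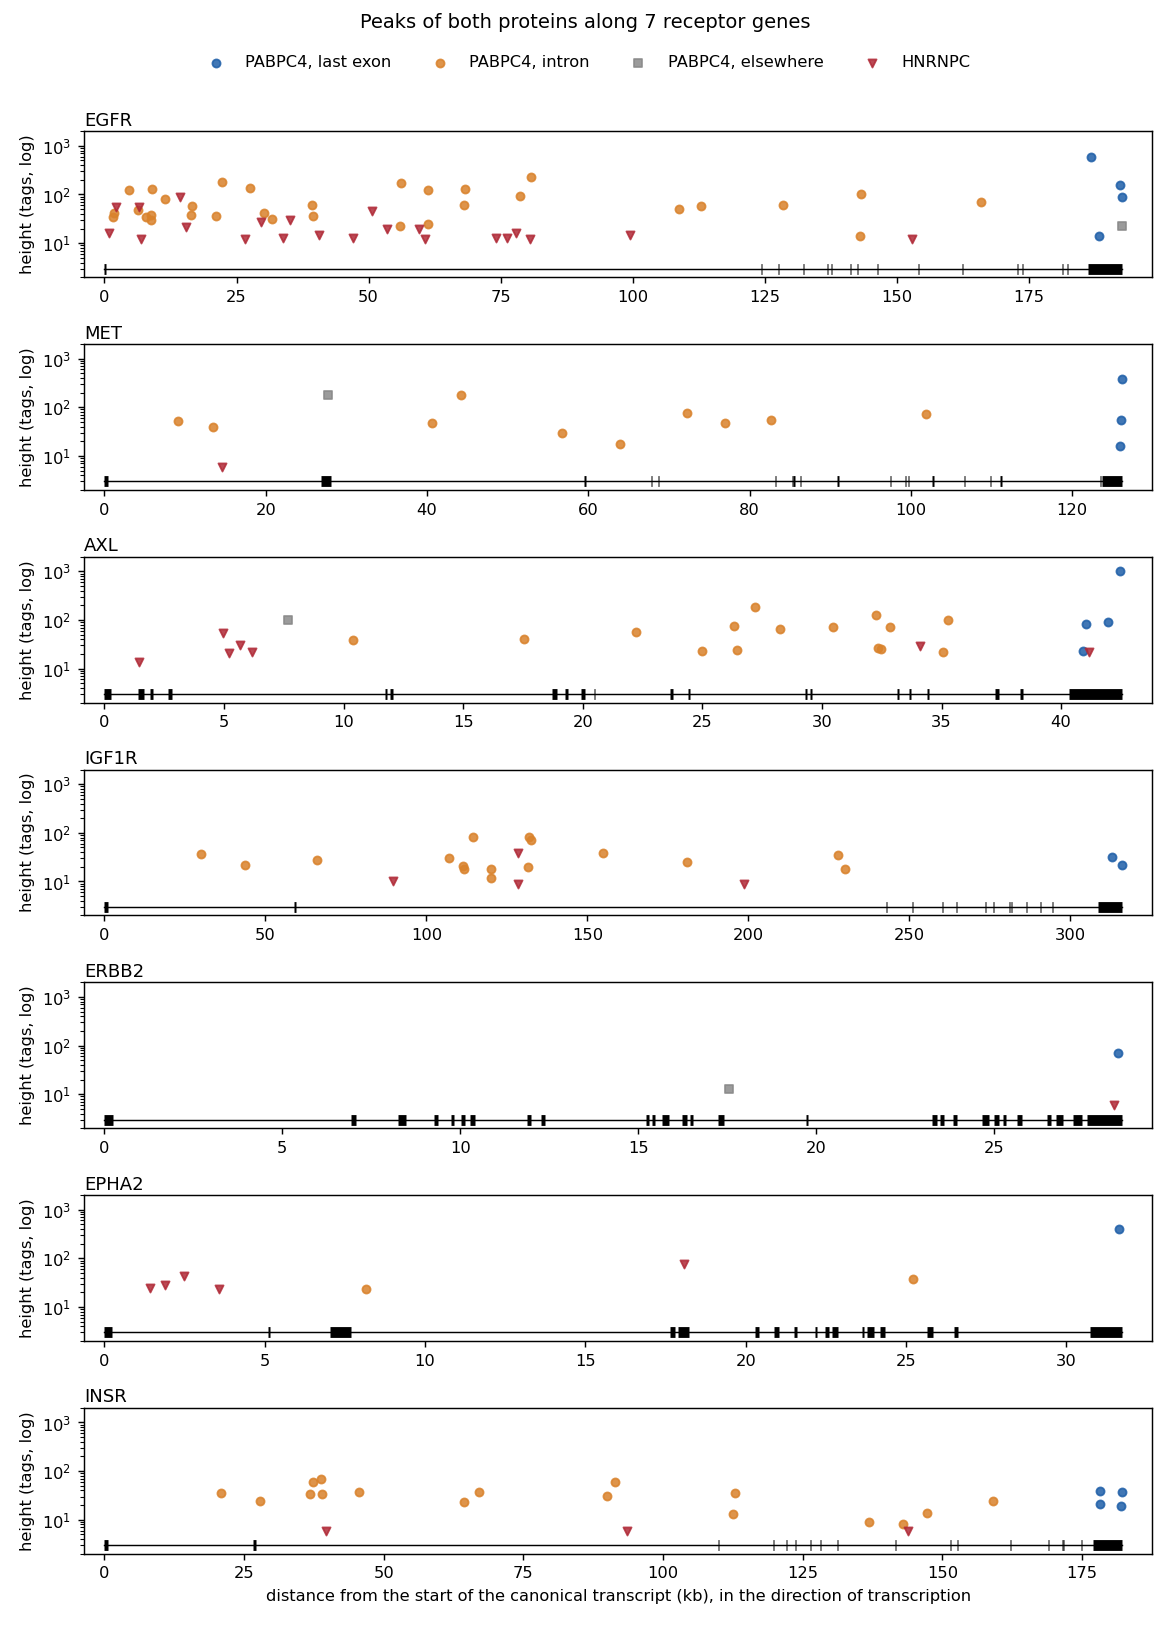
Peaks of PABPC4 (circles and squares) and HNRNPC (triangles) along 7 receptor genes, by distance from the start of the canonical transcript in kb and by height in tags on a log axis; black blocks at the foot are exons of that transcript. The 28 PABPC4 peaks in the first intron of EGFR and most of its HNRNPC peaks crowd its left side, and the tallest PABPC4 peaks of EGFR, MET, AXL, ERBB2 and EPHA2 stand at the right, in the last exon.

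DDR1 had 0 peaks in both lists and is left without a value. It lies at chr6:30876421-30900156, and the nearest listed HNRNPC positions on either side were 28354222 and 33625826, 5.27 Mb apart. For PABPC4 they were 28442029 and 33572553, 5.13 Mb apart. These stretches hold 176 and 173 protein-coding genes, all without a peak, so the count of 0 says nothing about DDR1 itself, and binding to it was not analysed here.

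To separate last-exon ends, which can keep the whole receptor, from intronic ends that would truncate it, each PABPC4 peak was placed by its centre on the canonical GENCODE transcript. Of 115 peaks, 19 lay in the last exon, or 16.5% (95% Wilson interval 10.8 to 24.4%), beside 29.8% of all PABPC4 peaks in protein-coding genes. Introns held 92, or 80.0% (71.8 to 86.3%), beside 59.8% in the whole list. The other 4 lay in an inner exon of MET (175 tags), in an exon of another AXL transcript (98 tags), in the last exon of another ERBB2 transcript (13 tags) and past the end of EGFR (23 tags). The last exon of another transcript thus held 0.870% of the receptor peaks, beside 2.89% of the whole list. Intervals here and elsewhere cover counting error only, and peaks of 1 gene are not independent of each other.

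By height the last exons held more. Of 8622 tags summed over the receptor peaks, 3182, or 36.9%, stood in last exons and 5131, or 59.5%, in introns. In the whole list the shares of summed height were 48.1% and 41.4%. The median last-exon peak of the receptors was 54 tags high (lowest 14, highest 1041), and the median intron peak was 38 tags high (lowest 8, highest 225). The ranges overlapped, and the corresponding medians of the whole list were 46 and 36 tags.

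The share of height in the last exon ran from 8.85% in IGF1R to 86.6% in EPHA2. ERBB2 had 84.3%, AXL 54.2%, MET 36.4%, EGFR 26.1% and INSR 17.6%. The insulin-type receptors IGF1R and INSR thus had the lowest shares. EPHA2 and ERBB2, the shortest of the 7 genes with peaks, had 1 last-exon peak each and only 2 and 0 intron peaks.

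In EGFR, the receptor of epidermal growth factor, 4 PABPC4 peaks lay in the last exon, with heights of 600, 14, 155 and 88 tags in the order of transcription. The 600-tag peak (chr7:55205758-55205915) held 70.0% of the last-exon height (66.9 to 73.0%) and ended 301 nt after the stop codon. It contained an annotated end at 55205865, that of a transcript with 9 exons and 343 codons, 50 nt before the end of the peak. No AATAAA or ATTAAA lay within its last 40 nt, nor in a window from 60 nt upstream to 10 nt downstream of its end. Both windows were set on the end of the peak and not on the annotated end. The 30 bases up to the annotated end held neither signal. The run of 13 A printed above lies within its last 30 bases, and the part of that run in the height was not tested. The peak at the canonical end of the gene (chr7:55211503-55211630) had 88 tags, or 10.3%, and no signal either. A peak of 155 tags, 394 nt before the canonical end, had an A-rich stretch downstream. A further 23-tag peak (chr7:55211688-55211723) lay 95 nt past the annotated end and carried a signal.

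MET had 3 last-exon peaks with heights of 16, 54 and 383 tags, whose 3′ ends lay 198 and 103 nt before the canonical end and 7 nt past it. The 383-tag peak (chr7:116798307-116798384) contained that end, 2263 nt after the stop codon by its last base, and held 84.5% of the last-exon height (80.9 to 87.6%). Of the 3, only that one had a signal.

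AXL, a receptor of the TAM family, had the tallest peak of all the receptors. Its 4 last-exon peaks had heights of 23, 83, 90 and 1041 tags. The tallest (chr19:41261566-41261765) ended 1 nt before the canonical end and held 84.2% of the last-exon height (82.0 to 86.1%), and its last 40 nt held CATAAA but neither standard signal. The 83-tag peak (chr19:41260224-41260295) stood at the end of a shorter annotated transcript with 885 codons, 1471 nt before the canonical end, and held 6.71% (5.45 to 8.24%). Between these ends, the 90-tag peak (chr19:41261162-41261207) carried ATTAAA with no annotated end and held 7.28%. In AXL the 3′ UTR that ended at the distal site thus had the larger height by far, within 1 list and with no replicate to set an error on it.

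ERBB2, the family member that binds no ligand and pairs with the others, had 1 last-exon peak of 70 tags (chr17:39728507-39728573). It stood 85 nt before the canonical end and 4 nt before the annotated end of another transcript. GENCODE classes that other transcript as nonsense-mediated decay, with 90 codons. EPHA2 had 1 last-exon peak of 394 tags (chr1:16124339-16124493), 2 nt from the canonical end. Both carried AATAAA.

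IGF1R and INSR had low last-exon peaks. In IGF1R a peak of 32 tags (chr15:98961399-98961417) lay 3113 nt before the canonical end and one of 22 tags (chr15:98964504-98964528) at the end. Their shares of the last-exon height were 59.3% (46.0 to 71.3%) and 40.7% (28.7 to 54.0%), and both peaks held AATAAA. The shares add up to the whole, so the intervals mirror each other and do not compare the peaks. In INSR the 4 peaks were 39, 21, 19 and 38 tags high in the order of transcription. The 38-tag peak (chr19:7112266-7112297) lay at the canonical end with a signal, and the 39-tag peak (chr19:7116244-7116290), 3979 nt upstream, had none. Neither height stood apart from the other.

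**Figure D2:**
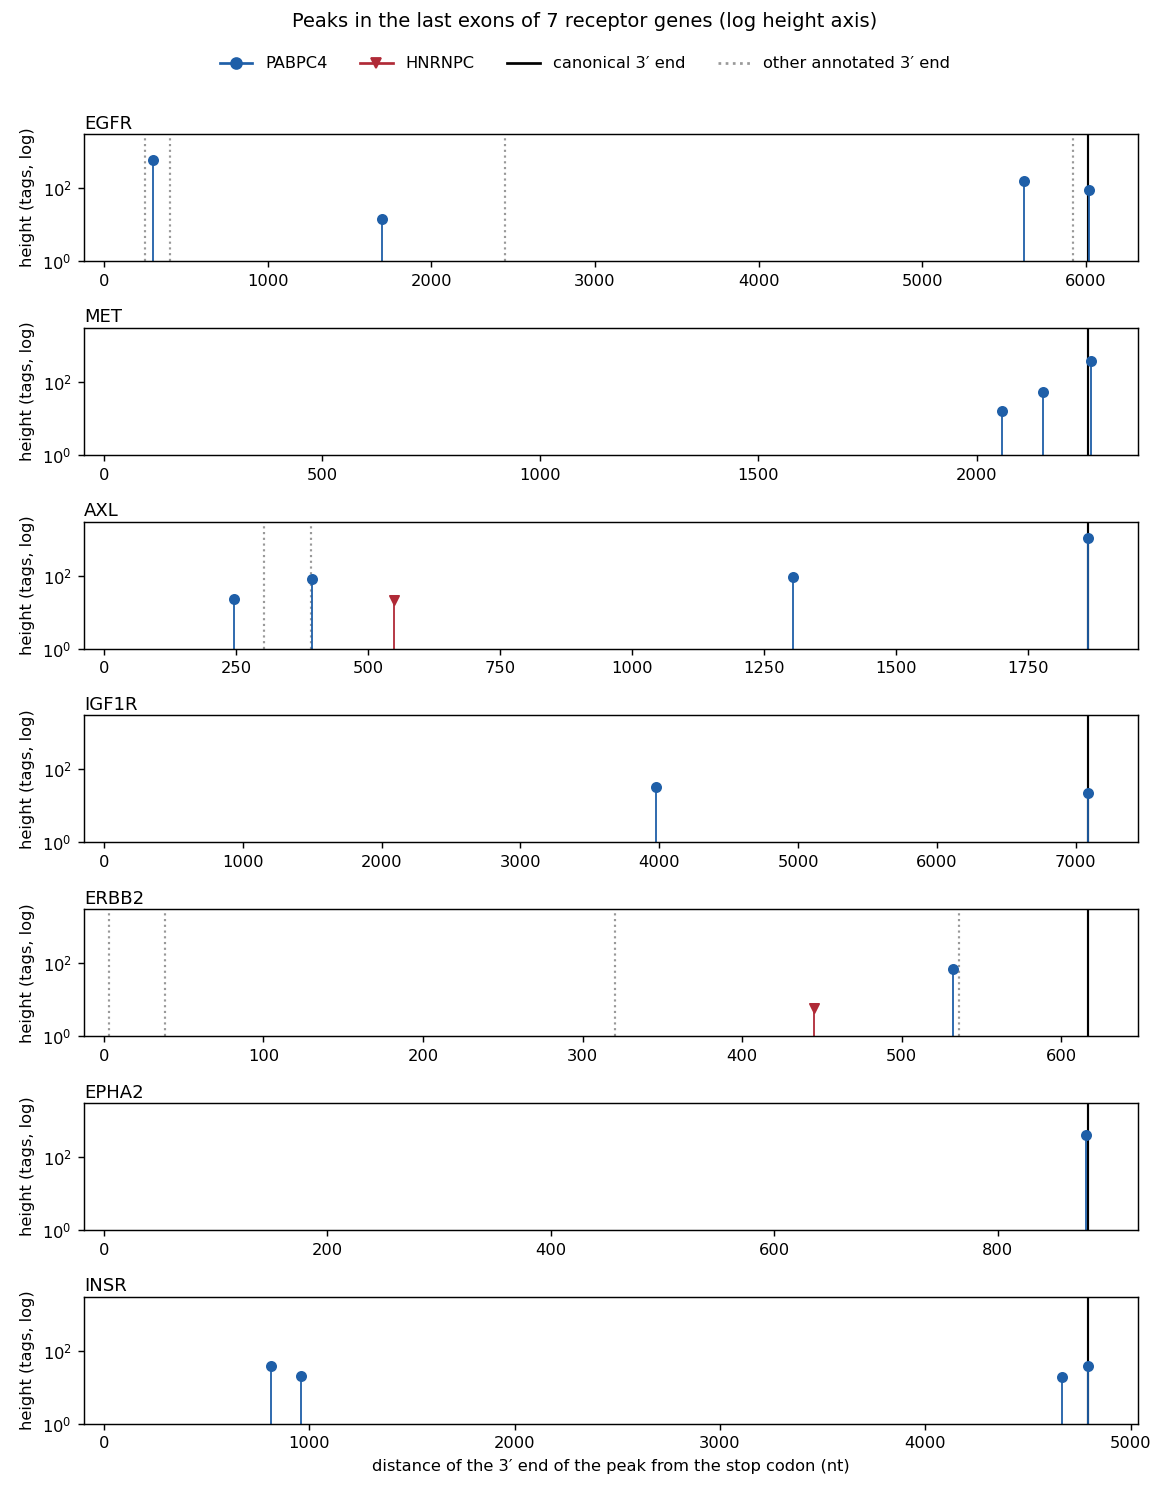
Height of each last-exon peak in tags (log axis) against the distance of its 3′ end from the stop codon in nt, for PABPC4 (blue) and HNRNPC (red); solid lines mark the canonical 3′ end and dotted lines other annotated ends. The tallest PABPC4 peak is at the canonical end in MET, AXL and EPHA2, and 301 nt after the stop codon in EGFR.

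A poly(A) signal was searched for in the last 40 nt of a peak, or in the whole peak where it was narrower. Over the 19 last-exon peaks, 8 had one, or 42.1% (23.1 to 63.7%), beside 46.6% of all PABPC4 last-exon peaks. An A-rich stretch, counted where the 50 nt downstream held 6 consecutive A or at least 7 A among 10 bases, followed 2 of them, or 10.5% (2.94 to 31.4%), beside 31.9% in the whole list. There were 9 at an annotated end, of which 6 had a signal, and these 9 held 2719 of the 3182 tags, or 85.4%. The share at annotated ends in the whole list was not calculated. Among the 9 was the 600-tag EGFR peak, which had no signal and ran 50 nt past its annotated end. A search that also took in the last 20 nt of each peak found an A-rich stretch at 7 of the 19, the 600-tag EGFR peak among them. This wider search can count the bases of a poly(A) signal itself as A-rich, as it did at the 22-tag IGF1R peak and the 70-tag ERBB2 peak. Its share in the whole list is not given here.

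The 92 intron peaks differed from these in the bases around them. An A-rich stretch followed 67, or 72.8% (63.0 to 80.9%), beside 71.1% of all PABPC4 intron peaks. A poly(A) signal was present in 3, or 3.26% (1.12 to 9.15%), beside 5.93%, and all 3 were also followed by an A-rich stretch. Intron peaks with a signal and no A-rich stretch, the form looked for as a candidate truncating end, numbered 0 of 92, which allows a share of up to 3.26%, beside 2.06% of all PABPC4 intron peaks. No intron peak lay at an annotated end. The classes nearly fixed this in advance, since a peak centred in an exon of any transcript was not counted as an intron peak. The remaining 25 of the 92 had neither a signal nor an A-rich stretch. A 13-tag ERBB2 peak described below, within canonical intron 15, was thus not among the 92. It had a signal and no A-rich stretch downstream.

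**Figure D3:**
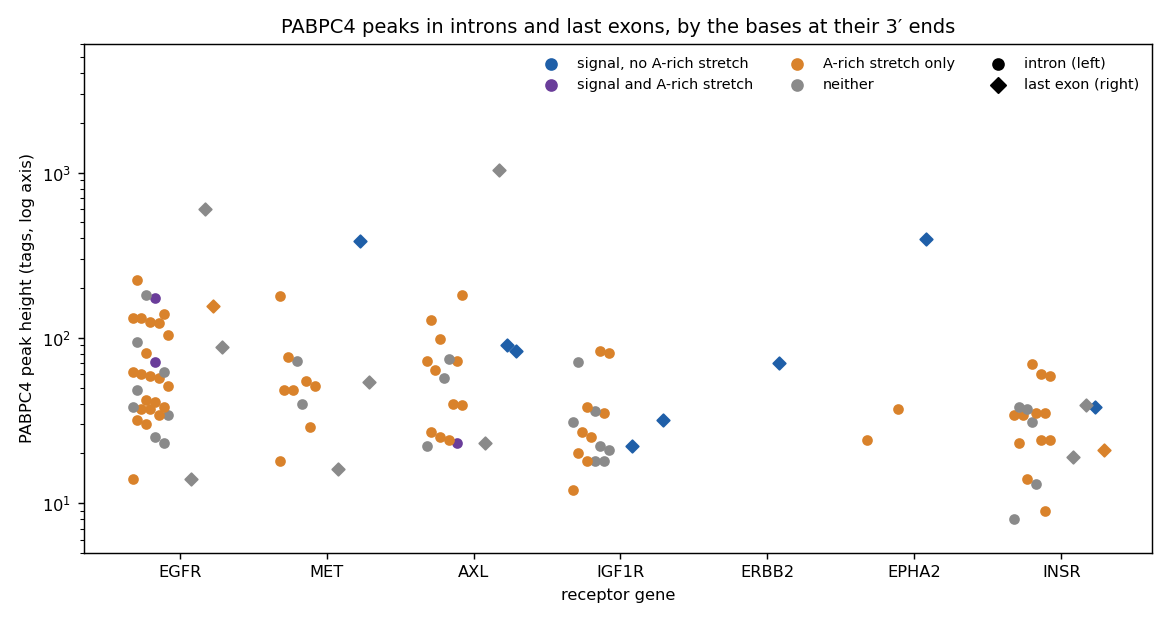
Height in tags (log axis) of every PABPC4 peak in an intron (circles) or last exon (diamonds) of 7 receptor genes, coloured by a poly(A) signal in the last 40 nt and an A-rich stretch within 50 nt downstream. Peaks narrower than 40 nt were searched for a signal over their own length. Orange, an A-rich stretch alone, is the most frequent colour in introns, and blue, a signal alone, appears at 8 last-exon peaks and at 0 intron peaks.

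The 3 intron peaks with a signal were in EGFR and AXL. In EGFR, one of 174 tags lay in intron 1 (chr7:55075129-55075191) and one of 71 tags in intron 20 (chr7:55184882-55184928), where 823 of 1210 codons lie upstream. In AXL, one of 23 tags lay in intron 12 (chr19:41244211-41244235), with 512 of 894 codons upstream. Their A-rich stretches held 7 A in 10 nt without 6 in a row at the last 2 of these, so a rule that asked for 6 A in a row would count both as candidates.

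To see what such ends would leave of a receptor, each intron was placed by the codons upstream of it. The transmembrane segment was taken as the most hydrophobic stretch of 21 residues, and the kinase was marked by its DFG motif, which holds the magnesium-binding aspartate. In EGFR these lay at residues 646 to 666 and at 855 of 1210. Of 92 intron peaks, 75 lay upstream of the end of the segment, 14 between the segment and DFG, 1 after DFG and 2 before the start codon. The intronic length in each part was not calculated, so these counts do not show whether peaks favour any part of the receptor. An A-rich stretch followed 54 of the 75, 11 of the 14, the 1 after DFG and 1 of the 2.

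**Figure D4:**
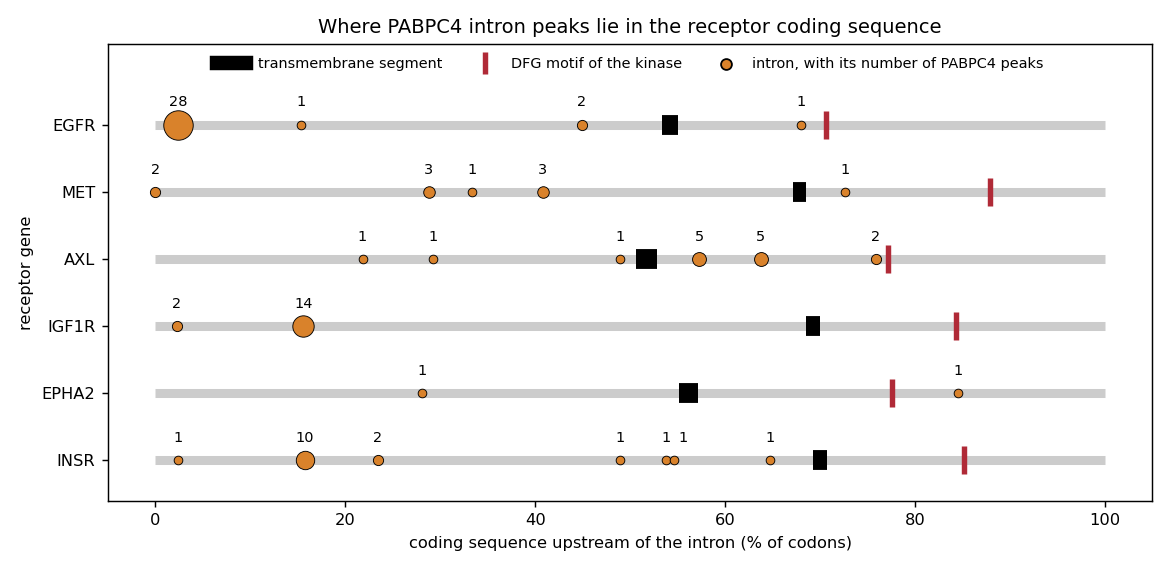
Introns with PABPC4 peaks (circles, with the number of peaks) placed by the share of codons upstream, in percent, for 6 receptor genes; black blocks mark the transmembrane segment and red bars the DFG motif. EGFR, IGF1R and INSR have most of their peaks far to the left, and AXL has 12 of 15 between the segment and DFG. Intron length is not shown.

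In EGFR, 28 of 32 intron peaks lay in intron 1, which is 122920 nt long and makes up 67.3% of the intronic length, with 29 codons upstream. Their tallest had 225 tags (chr7:55099755-55099824), and an A-rich stretch followed 24 of the 32. IGF1R had 14 of 16 in intron 2, with 213 of 1367 codons upstream, and its tallest had 83 tags (chr15:98780474-98780520). INSR had 10 of 17 in intron 2, with 217 of 1382 codons upstream, and its tallest had 69 tags (chr19:7255573-7255619). Intron 2 is 183217 nt long in IGF1R and 82707 nt long in INSR. Thus in these 3 genes the intron with the most peaks was the longest of the gene, and it lay near the start of the coding sequence. All 17 INSR and all 16 IGF1R intron peaks lay upstream of the transmembrane segment. Peaks per length of intron were not calculated.

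AXL, whose intron 1 is 1158 nt long and makes up 3.06% of its intronic length, differed in this. Of its 15 intron peaks, 12 lay between the segment (residues 452 to 472) and DFG (residue 690), with 5 in intron 12, 5 in intron 14 and 2 in intron 17. The tallest had 182 tags (chr19:41246371-41246444), and an A-rich stretch followed 12 of the 15. MET had 10 intron peaks, 2 of them upstream of its start codon and 1 of them between the segment and DFG, and the tallest had 179 tags (chr7:116716421-116716468) in intron 2. An A-rich stretch followed 8 of the 10. The 175-tag peak in the coding exon 2 of MET (chr7:116699912-116699973) was also followed by one. EPHA2 had intron peaks of 24 and 37 tags, the second in intron 14 after DFG, and an A-rich stretch followed both.

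ERBB2 had 0 intron peaks but the one internal end that the annotation also holds. Its peak of 13 tags (chr17:39717607-39717645) lay 10 nt before the end of an annotated transcript with 8 exons, carried ATTAAA and had no A-rich stretch downstream. The canonical transcript has 632 of 1255 codons upstream of it, or 50.4%, which ends before the segment at residues 654 to 674. GENCODE classes that transcript as a retained intron with no coding sequence, so a protein from it is not annotated. The 13 tags stood beside 70 at the last exon. A search that also took in the last 20 nt of the peak found an A-rich stretch at both ERBB2 peaks. That search can count the bases of a poly(A) signal as A-rich. In the 70-tag peak the bases that met the rule include its AATAAA, while in the 13-tag peak bases after its ATTAAA also met it.

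HNRNPC peaks of the receptors lay mostly in introns. Introns held 38 of 43, or 88.4% (75.5 to 94.9%), beside 85.1% of all HNRNPC peaks in protein-coding genes. Last exons held 2, or 4.65% (1.28 to 15.5%), beside 4.50%. Of the other 3, 2 lay in inner exons of AXL (14 tags) and EPHA2 (76 tags), and 1 in the last exon of another EGFR transcript (12 tags). In EGFR 20 of 22 lay in intron 1, the intron that also held most of its PABPC4 peaks, and the one assigned to another transcript lies within that intron too.

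By height, EGFR ran from 12 to 87 tags with a median of 15.5, and the tallest was in intron 1 (chr7:55033322-55033492). AXL ran from 14 to 55 tags with a median of 22. Its peaks of 55, 21, 30 and 22 tags stood in a row in intron 4, from 4952 to 6153 nt from the start of the transcript. The 5 EPHA2 peaks had 25, 28, 43, 23 and 76 tags in the order of transcription, 4 of them in intron 1 and the tallest in an inner coding exon (chr1:16137841-16138139). The 4 IGF1R peaks had 10, 9, 39 and 9 tags, all in intron 2. MET and ERBB2 had 1 peak of 6 tags each and INSR had 3 of 6 tags. The receptors thus fell into 3 with peaks of over 50 tags (EGFR, AXL and EPHA2), 1 with a tallest peak of 39 tags, and 3 at 6 tags.

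Each gene also carried 1 height that the authors' peak caller expected by chance. This value is not independent of the peak heights, since both rest on the tags of the gene. It was 1.85 tags in EPHA2, which ranked 35 of the 4098 gene IDs in the HNRNPC list, 1.44 in AXL (rank 56) and 0.73 in EGFR (rank 236). IGF1R had 0.24 (rank 1206), ERBB2 0.10 (rank 2441), and MET and INSR 0.06 (rank 3164). In the PABPC4 list AXL ranked highest of the receptors, with 3.55 tags (rank 503 of 13189), and IGF1R lowest, with 0.08 (rank 8972).

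Bases of 2 kinds were searched around the HNRNPC peaks. A run of 5 U in the 50 nt upstream was present at 11 of 43, or 25.6% (14.9 to 40.2%), beside 31.0% in the whole list. GUGUCA, the bases with which a 3′ linker common in CLIP work begins, lay within 20 nt of the 3′ end at 14 of 43, or 32.6% (20.5 to 47.5%), beside 40.6%. It was present at the tallest IGF1R peak, the ERBB2 peak and 5 of the 22 EGFR peaks, among them those of 56, 55 and 46 tags, which came next in height after the 87-tag peak. The tallest peaks of EGFR, AXL and EPHA2 did not have it. Its part in these heights was not tested.

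**Figure D5:**
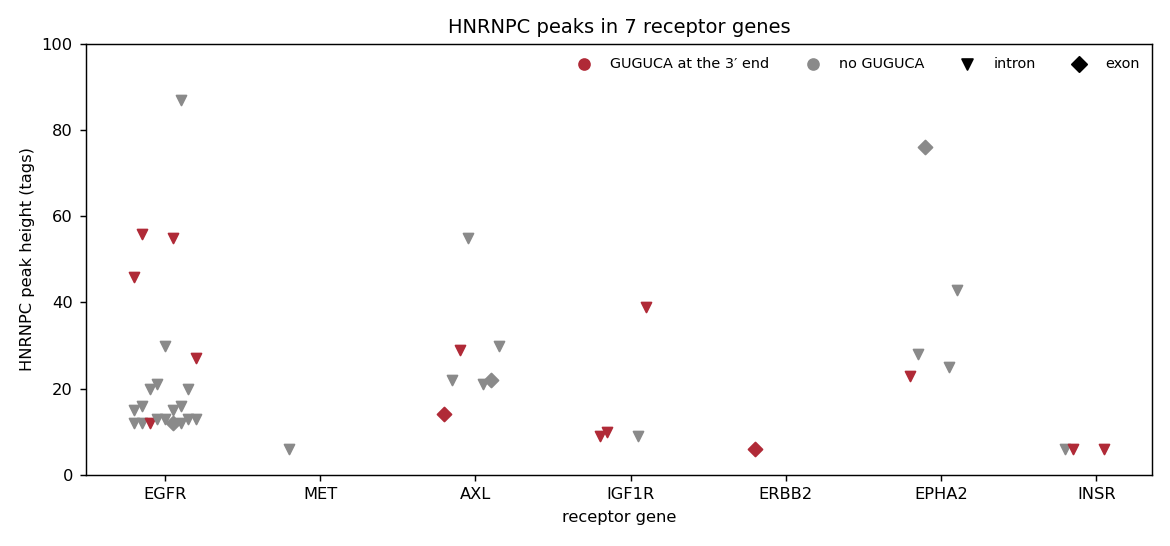
Height in tags of every HNRNPC peak in 7 receptor genes, for peaks in introns (triangles) and exons (diamonds), with GUGUCA within 20 nt of the 3′ end in red. EGFR, AXL and EPHA2 have peaks above 50 tags, and MET, ERBB2 and INSR have none above 6.

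The study asked whether HNRNPC acts at mRNA ends, so the peaks of both proteins were set beside each other. The median HNRNPC peak lay 1937 nt from the nearest PABPC4 peak of its gene (lowest 18, highest 17884 nt), 3 of 43, or 6.98% (2.40 to 18.6%), lay within 100 nt and 0 overlapped one. Among the 8219 HNRNPC peaks of the whole list in protein-coding genes that also had a PABPC4 peak, the median gap was 4070 nt, 2.13% lay within 100 nt and 0.791% overlapped one. Both HNRNPC peaks in last exons were among the 3. In AXL an HNRNPC peak of 22 tags (chr19:41260314-41260450) began 18 nt downstream of the 83-tag PABPC4 peak at the proximal end, directly after the run of 15 U printed above. It was 1115 nt upstream of the 1041-tag distal peak. In ERBB2 an HNRNPC peak of 6 tags (chr17:39728371-39728486) ended 20 nt upstream of the 70-tag PABPC4 peak, and the authors' p-value for it was 0.0836. The third was in intron 1 of EGFR, where a 12-tag HNRNPC peak ended 34 nt before the 225-tag PABPC4 peak.

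Other genes of the pathway were counted from 3 lists. Of 50 other receptor tyrosine kinases, 7 had an HNRNPC peak, 29 had a PABPC4 peak and 16 had a PABPC4 peak in the last exon. An HNRNPC peak in the last exon was present in 1 of them and in 2 of the 8 receptors above, AXL and ERBB2, beside 1.65% of all protein-coding genes with more than 1 exon. Their introns held 111 PABPC4 peaks, of which 79, or 71.2%, were followed by an A-rich stretch and 5 had a signal without one. The most peaks were in EPHB2, an ephrin-B receptor (7 HNRNPC, 24 PABPC4), ROR1, a WNT5A receptor (1 and 28), and PDGFRA, a platelet-derived growth factor receptor (0 and 23, of which 21 lay outside the gene as GENCODE has it). Among the 5 with both an HNRNPC intron peak and a PABPC4 last-exon peak, the summed last-exon height was highest in EPHB2 (514 tags), FGFR1 (271 tags) and MERTK (87 tags).

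Of 13 ligands of the receptors, 2 had an HNRNPC peak, 11 a PABPC4 peak and 8 a PABPC4 last-exon peak. TGFA, an EGFR ligand, had a last-exon height of 248 tags, EREG, another one, 201 tags over 4 peaks, and GAS6, the AXL ligand, 876 tags in 1 peak. The ligand introns held 11 peaks, 9 of them followed by an A-rich stretch and 0 with a signal alone. Of 17 adaptors and negative regulators, 9 had an HNRNPC peak, 17 a PABPC4 peak and 14 a PABPC4 last-exon peak. GRB2, the adaptor that links receptors to RAS, had a last-exon height of 550 tags, IRS1, a docking protein of the insulin-type receptors, 423 tags, and GAB2, a docking protein, 0 with 17 intron peaks. Of the 85 intron peaks in that list, 68, or 80.0%, were followed by an A-rich stretch and 1 had a signal alone.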

How the data were processed

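HNRNPC irCLIP and PABPC4 PAPERCLIP tags came from MDA-MB-231 cells, with 2 samples per protein. According to the study's methods, the authors collapsed HNRNPC reads by molecular identifiers, trimmed them, aligned them with BWA 0.7.17 to hg38, removed PCR copies and used the CLIP Tool Kit to find peaks. The methods also merged peaks with a published HNRNPC map, and whether the deposited list holds these was not settled here. The processing of the PABPC4 list was not given separately in the sources used here. The deposited value of each peak was its height, a count of unique tags at the summit pooled over samples and not scaled to depth. Columns of p-values and expected heights are the authors' own.

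The lists held 10388 and 69778 entries, which were 9107 and 63507 positions. Gene IDs were matched to RefSeq symbols (4090 of 4098 and 13155 of 13189), and peaks were placed by their centre on canonical transcripts of GENCODE 44 with Python 3.11.15 and pysam 0.24.0. Whole-list shares cover the 8363 and 59257 positions in protein-coding genes with more than 1 exon. Sequences were read from hg38, and that of the tallest EPHA2 intron peak is not reported here. The transmembrane segment was a hydropathy window of the translated coding sequence. Intervals are 95% Wilson intervals, and a count of 0 was given the limit of 3 counts. The classification was tested on simulated data. Genes outside the receptors were named by number of peaks or summed last-exon height. The receptors, the gene lists and the alternatives were chosen with earlier results of these data known. Alternatives covered stricter p-values and heights, every listed entry, membership by position, another placement of peaks, any transcript, and other rules for A-rich stretches and signals. A search for A-rich stretches from 20 nt inside the peak was added after seeing the data.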

Additional observations from a re-analysis of the deposited data

How the results depend on the processing

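Of 68 recalculated values, 57 moved by less than their interval or, for counts, by less than 1.5 times, and 11 moved more. HNRNPC peaks fell to 26 at an authors' p-value of at most 0.001, and PABPC4 peaks to 63 at or above the median height of the list. The last-exon share of PABPC4 height became 41.3% with those taller peaks, and 31.4% when peaks were placed by their 3′-most base, since peaks that run past the annotated end then fall outside the gene. The share of intron peaks followed by an A-rich stretch became 53.3% when only 6 A in a row counted and 56.5% with a window of 20 nt. Intron peaks with a signal became 21.7% when single-base variants of the signal counted and 10.9% when the window ran from 60 nt upstream to 10 nt downstream.

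Candidate truncating ends, 0 by the rule used, became 2 with 6 A in a row only (EGFR intron 20, 71 tags, and AXL intron 12, 23 tags), 1 with the 20 nt window (the EGFR peak) and 6 with variant signals. Those 6 were EGFR peaks of 34 and 38 tags in intron 1, an AXL peak of 74 tags in intron 12, an IGF1R peak of 22 tags in intron 1, and INSR peaks of 37 tags in intron 2 and 8 tags in intron 10. The 13-tag ERBB2 peak at an internal annotated end has a signal and no A-rich stretch downstream. None of these counts includes it, since it lies in an exon of another transcript. The search from 20 nt inside the peak left the number of candidates at 0 and gave 77.2% of intron peaks an A-rich stretch. No paired analysis was possible because each list pools the samples of a protein. Peaks of 6 tags are the only HNRNPC values of MET, ERBB2 and INSR, and the depth per library was not analysed here.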
